A study of Mus musculus with 160 samples.

Results

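The hematopoietic niche cytokine ligands examined here were *Kitl*, *Thpo*, *Csf1*, *Il34*, *Flt3l*, *Il7*, *Lif*, *Il6*, *Il1b* and *Tnf*, chosen by name and looked up by gene identifier in a count table of 46078 genes. Of these 10 ligands, 9 had a row in the table, and *Flt3l* was not analysed here. RNA was sequenced from the aorta-gonads-mesonephros (AGM), the embryonic region in which the first hematopoietic stem cells arise, of mouse embryos heterozygous for a *Gata3*-GFP reporter (genotype *Gata3*-GFP +/-). Within each of 4 cell types, cells with and without GFP were sorted, 20 cells to a pool and 20 pools to a population, which gave 8 populations and 160 pools. Endothelial cells (ECs, sorted on VE-cadherin) and hematopoietic cells (HCs, sorted on CD41 and CD45) were taken at E10.5, and PDGFRB-sorted mesenchymal cells (MCs) and p75-sorted cells of the sympathetic nervous system (SNS) at E11.5. Every embryo carried the reporter allele, so the GFP- populations come from the same heterozygous genotype as the GFP+ populations. The comparisons ask which sorted population is the source of each ligand transcript and whether that source lies in the *Gata3*-GFP+ or the GFP- fraction.

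Stem cell factor, the product of *Kitl*, binds the receptor tyrosine kinase KIT and is a survival factor for blood progenitors, germ cells and melanocytes. Thrombopoietin (*Thpo*) acts on megakaryocytes and stem cells, CSF1 and IL-34 (*Il34*) both bind CSF1R on macrophages, and IL-7 acts through IL7R with the common gamma chain on lymphoid progenitors. LIF and IL-6 signal through GP130 (*Il6st*), whereas IL-1β and TNF are inflammatory ligands released mostly by myeloid cells, and both have been linked to hematopoietic emergence from the endothelium.

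The promoter sequences of 4 ligands that set the populations apart are shown first, since these ligands split into an endothelial and a hematopoietic pattern. Of the 10 ligands, 8 had an entry in the RefSeq promoter table of build GRCm38.p6. Each sequence below holds the 250 bases before the transcription start, 5′ to 3′ on the strand of the gene, and capitals mark a match on either strand to 1 of 4 motifs. These were GGGNNTTTC, a shortened NF-κB motif, a pair of GATA motifs spelled AGATAA and, with another first base, TGATAA, and the TATA box, spelled TATAAA. The windows are chr3:107760470-107760719 (minus strand) for *Csf1*, chr5:30012864-30013113 (plus) for *Il6*, chr2:129371140-129371389 (minus) for *Il1b* and chr17:35202008-35202257 (minus) for *Tnf*.
Csf1: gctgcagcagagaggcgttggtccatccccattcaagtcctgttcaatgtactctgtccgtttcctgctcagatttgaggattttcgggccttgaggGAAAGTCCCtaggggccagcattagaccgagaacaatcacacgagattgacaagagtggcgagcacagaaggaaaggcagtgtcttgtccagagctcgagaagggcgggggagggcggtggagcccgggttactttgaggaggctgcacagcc
Il6: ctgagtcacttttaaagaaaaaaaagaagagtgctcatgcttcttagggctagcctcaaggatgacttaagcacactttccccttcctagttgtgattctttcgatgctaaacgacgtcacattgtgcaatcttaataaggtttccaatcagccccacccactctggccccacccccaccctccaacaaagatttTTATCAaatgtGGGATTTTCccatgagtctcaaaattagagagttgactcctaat
Il1b: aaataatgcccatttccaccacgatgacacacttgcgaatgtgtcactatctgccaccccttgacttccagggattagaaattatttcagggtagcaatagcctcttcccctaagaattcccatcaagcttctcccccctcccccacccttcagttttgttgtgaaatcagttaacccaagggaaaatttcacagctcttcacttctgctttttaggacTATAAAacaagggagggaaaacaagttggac
Tnf: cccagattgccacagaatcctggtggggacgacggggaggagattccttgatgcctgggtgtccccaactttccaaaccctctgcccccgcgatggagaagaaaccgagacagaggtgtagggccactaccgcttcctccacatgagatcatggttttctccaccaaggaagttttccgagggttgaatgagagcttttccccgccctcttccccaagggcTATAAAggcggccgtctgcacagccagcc

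The NF-κB motif was matched in *Csf1*, on the opposite strand 153 to 145 bases before the start, and in *Il6*, on the same strand 44 to 36 bases before it. It was found in 3.72% of the 32851 promoters of the table. *Il6* also held a TGATAA on the opposite strand, 55 to 50 bases before the start, a motif found in 7.94% of promoters, and AGATAA, found in 9.99%, matched none of the 8 ligands. A TATAAA lay 31 to 26 bases before the start of *Il1b*, 29 to 24 bases before that of *Tnf* and 25 to 20 bases before that of *Kitl*, and 12.4% of promoters held one. The *Kitl* window, which overlaps the annotated gene because a longer transcript starts further upstream, is not printed. None of the motifs overlapped another, and a match describes the letters of the window only. In the gene annotation of build GRCm38, *Kitl* spans chr10:100015630-100100416 (plus strand), *Csf1* chr3:107741048-107760469 (minus), *Il7* chr3:7569994-7613760 (minus), *Il6* chr5:30013114-30019981 (plus), *Il1b* chr2:129364570-129371139 (minus) and *Tnf* chr17:35199381-35202007 (minus).

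Of the 160 pools, 153 passed the quality limits, with 17 to 20 pools a population and between 1400824 and 16004756 counts on genes in a pool. The sort was checked with *Gata3* itself, which was higher in GFP+ than GFP- pools of ECs (log2 fold change 2.66), HCs (2.89) and SNS (1.85) but not of MCs, where it averaged 37.6 ± 15.9 CPM (counts scaled to the size of each library, SD, n = 20) in GFP+ and 59.4 ± 122 CPM (n = 17) in GFP- pools. In 12 MC and SNS pools, 3 from each population, the summed markers of the labelled cell type were below 1/3 of the population's median. The 3 GFP- pools labelled MC held 94.1 to 211 CPM of mesenchymal and 1938 to 4303 CPM of sympathetic markers, and the 6 pools labelled SNS held 2843 to 5656 CPM of mesenchymal and 24.6 to 112 CPM of sympathetic markers. Of the 3 GFP+ pools labelled MC, 2 also had more sympathetic than mesenchymal marker counts. Without these 12 pools, *Gata3* was higher in GFP+ than in GFP- MCs (36.5 against 9.92 CPM on average, log2 fold change 1.88, adjusted p = 9.00e-08, quasi-likelihood test of edgeR). These 12 are called low-marker pools here. MC and SNS results are therefore given with all passing pools and, where a call differs, without the low-marker pools, which keeps 17 GFP+ and 14 GFP- MC pools and 15 GFP+ and 16 GFP- SNS pools. The pools are not tied to embryos or sorts, so the p-values measure the spread between pools, which may be technical. In pools of cells, more cells with a transcript cannot be told apart from more transcript in each cell.

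The most widely detected ligand was *Kitl*, with at least 1 count in 151 of the 153 pools and at least 10 counts in 134 of them. *Csf1* reached 10 counts in 75 pools, *Tnf* in 25, *Il1b* in 23, *Il7* in 11 and *Il6* in 8. *Thpo*, *Il34* and *Lif* stayed near the detection limit, with 10 counts in 4, 3 and 1 pools. Of the 9 ligands, 6 were therefore testable across populations (*Kitl*, *Csf1*, *Il7*, *Il6*, *Il1b* and *Tnf*), those with at least 10 counts in at least 5 pools. A difference was called at an adjusted p under 0.01 with a log2 fold change over 0.1 in either direction, and adjusted p-values come from the quasi-likelihood test of edgeR, adjusted by Benjamini and Hochberg's method over all genes, unless another test is named.

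Scaled to exon length, the highest mean level of any ligand was that of *Kitl* in GFP- ECs, at 18.4 CPM per kb, and in GFP+ ECs it was 9.80 CPM per kb. *Il1b* and *Tnf* in GFP- HCs reached 12.2 and 8.09 CPM per kb. *Csf1* reached 3.13 CPM per kb in GFP+ ECs, *Il6* 1.72 CPM per kb in GFP- HCs and *Il7* 0.457 CPM per kb in GFP+ MCs. The means of *Thpo*, *Il34* and *Lif* did not exceed 0.281, 0.167 and 0.0524 CPM per kb in any population.

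**Figure D1:**
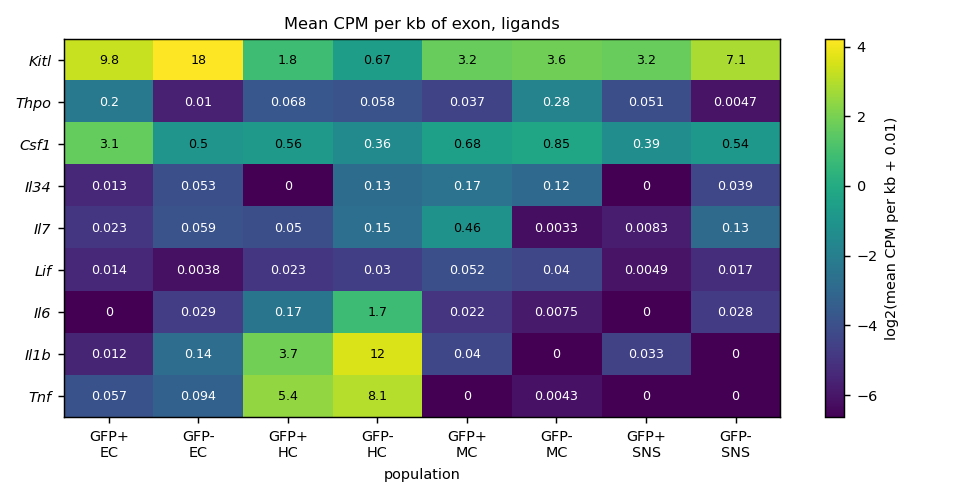
Mean level of the 9 ligands (rows) in the 8 populations (columns), in CPM per kb of exon, with each mean printed in its cell and the colour on a log2 scale. *Kitl* is highest in ECs (18.4 and 9.80 CPM per kb), *Il6*, *Il1b* and *Tnf* are high in the HC columns only, and *Thpo*, *Il34* and *Lif* stay below 0.3 CPM per kb.

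*Kitl* was an endothelial transcript first, and its GFP- fractions carried more of it in both ECs and SNS. In the 20 GFP- EC pools its lowest, median and highest values were 38.2, 102 and 244 CPM, and in the 19 GFP+ EC pools they were 11.8, 52.5 and 159 CPM. The groups overlapped, but 17 of the 19 GFP+ pools lay below the GFP- median. The means were 58.0 ± 35.3 CPM (SD, n = 19) in GFP+ and 109 ± 51.2 CPM (n = 20) in GFP- ECs, a log2 fold change of -0.95 (SE 0.23, adjusted p = 0.000792). When all 8 populations were fitted together, with one spread for all, the same difference was -0.92 with an adjusted p of 0.0196 and was not called.

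In SNS pools *Kitl* ran from 11.6 to 65.1 CPM with a median of 44.3 in GFP- and from 5.15 to 48.3 with a median of 17.3 in GFP+ pools. The groups overlapped, with 17 of the 18 GFP+ pools below the GFP- median and 7 of the 19 GFP- pools above every GFP+ pool. The mean was 19 ± 10.6 CPM (n = 18) in GFP+ against 41.7 ± 16.1 CPM (n = 19) in GFP- SNS pools, a log2 fold change of -1.13 (SE 0.24, adjusted p = 0.00148). Without the low-marker pools it was -1.37 (SE 0.23, adjusted p = 4.39e-05). With ERCC size factors (adjusted p = 0.0224), which put the GFP+ mean at 31.2 CPM, or in the fit of 8 populations (adjusted p = 0.0261) the SNS difference was not called.

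Several marker lists moved with GFP in the SNS sort. Summed sympathetic markers ran from 24.6 to 3540 CPM (median 1544) in GFP+ and from 50.7 to 1042 CPM (median 741) in GFP- pools, with 3 of the 9 higher in GFP+ (*Th*, *Dbh* and *Stmn2*). Summed markers of the gonad and coelomic epithelium ran from 0.218 to 127 CPM in GFP+ and from 0.936 to 295 CPM in GFP- pools, with 2 of the 3 tested lower in GFP+ (*Lhx9* and *Nr5a1*). Of the nephric and epithelial markers, 2 of the 4 tested (*Pax2* and *Pax8*) were lower in GFP+ SNS. Their part in the *Kitl* difference was not tested.

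In HCs, where *Kitl* was lowest, the direction was the other way: 10.51 ± 7.67 CPM (n = 20) in GFP+ and 3.97 ± 4.63 CPM (n = 20) in GFP- pools. The lowest, median and highest values were 0.562, 10.05 and 29 CPM in GFP+ and 0, 2.96 and 19.1 CPM in GFP- HCs, and 17 of 20 GFP+ pools lay above the GFP- median. The log2 fold change of 1.41 (SE 0.47) had an adjusted p of 0.0157 and was not called. It was called in the fit of 8 populations (1.44, adjusted p = 0.000694), with DESeq2's Wald test (1.46, adjusted p = 0.00385) and in the study's own test (1.71, adjusted p = 0.00779). Without the highest GFP+ pool it was 1.27 and not called (adjusted p = 0.0291). A two-sided permutation test on log2(CPM + 1) gave an unadjusted p = 0.00126. GFP+ HC pools also held more of the markers of the other sorted cell types. Summed EC markers ran from 112 to 642 CPM in GFP+ and from 60.3 to 203 CPM in GFP- HCs, with 6 of 8 higher, and summed mesenchymal markers from 18.4 to 978 against 3.37 to 175 CPM, with 8 of 9 higher. All 9 sympathetic markers were higher too, from 5.0 to 1979 against 1.71 to 27.8 CPM in sum. Their part in the *Kitl* values was not tested.

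*Kitl* levels in MCs did not separate by GFP. They ran from 1.20 to 41.6 CPM (median 14.6) in GFP+ and from 0 to 56.2 CPM (median 19.6) in GFP- pools, and the groups covered much the same range. The log2 fold change was -0.17 (SE 0.42, adjusted p = 0.861), and -0.51 (SE 0.45, adjusted p = 0.505) without the low-marker pools. Its sign turned to 0.0059 when the highest GFP- pool was left out.

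Ordered by mean, *Kitl* fell from GFP- ECs through GFP+ ECs, GFP- SNS, GFP- MCs, GFP+ SNS, GFP+ MCs and GFP+ HCs to GFP- HCs. Of the 7 neighbouring pairs in this order only the last, GFP+ HCs above GFP- HCs, was called in the fit of 8 populations, where 26.4% of genes were called for that pair. With each population weighted equally, ECs held 59.2% of the summed mean CPM of *Kitl*, SNS 21.5%, MCs 14.2% and HCs 5.13%.

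*Csf1* showed the opposite polarity to *Kitl* in the endothelium, being a transcript of GFP+ ECs. Its lowest, median and highest values were 0.289, 12 and 64.9 CPM in GFP+ and 0, 2.02 and 9.02 CPM in GFP- ECs. Of the 19 GFP+ pools, 13 lay above every GFP- pool, and the rest overlapped with them. The means were 16.5 ± 14.9 CPM (SD, n = 19) and 2.64 ± 2.56 CPM (n = 20), a log2 fold change of 2.57 (SE 0.48, adjusted p = 2.03e-05), and 2.32 without the highest GFP+ pool.

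In the other populations the mean of *Csf1* stayed between 1.89 and 4.49 CPM. The log2 fold change was 0.66 (SE 0.65, adjusted p = 0.451) in HCs, -0.32 (SE 0.52, adjusted p = 0.776) in MCs and -0.50 (SE 0.60, adjusted p = 0.697) in SNS, none of them called. Without the low-marker pools the SNS value was -1.30 (SE 0.63, adjusted p = 0.170), also not called. GFP+ ECs stood above the next population in the order, GFP- MCs, by 1.87 (adjusted p = 0.00525), a pair for which 40.1% of genes were called, and the 6 pairs further down did not differ beyond their spread. Without the low-marker pools that pair was not called. GFP+ ECs alone held 44.7% of the summed mean CPM of *Csf1*, and both EC populations 51.8%.

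Both of the ligands testable in ECs were called between GFP+ and GFP- ECs, a comparison in which 36% of all genes tested were called. Markers of other cell types were also higher in the GFP+ EC pools. Summed mesenchymal markers ran from 26.0 to 1578 CPM in GFP+ and from 3.87 to 72.0 CPM in GFP- ECs, with 7 of the 7 tested higher, and summed mural cell markers from 12.6 to 3291 against 3.30 to 29.6 CPM, with 2 of the 3 tested higher (*Acta2* and *Tagln*). Summed blood markers ran from 203 to 439 against 39.7 to 123 CPM, with 3 of the 6 tested higher, and summed EC markers were themselves higher (6227 to 8417 against 4341 to 6069 CPM). Their part in the *Csf1* and *Kitl* differences was not tested.

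*Il34*, the other ligand of CSF1R, had a count in 11 of 153 pools and 10 counts in 1 pool each of GFP- HCs, GFP+ MCs and GFP- MCs, with a highest value of 5.34 CPM. The GFP+ MC pool, which holds that highest value, is a low-marker pool, and no other GFP+ MC pool reached 10 counts. The median of *Il34* was 0 in all 8 populations. *Thpo* had a count in 18 pools and reached 10 counts in 1 GFP+ EC and 3 GFP- MC pools (2 without the low-marker pools), with a highest value of 6.40 CPM, and its exons overlap those of *Chrd*, on the opposite strand, over 9.09% of their length. *Lif* had a count in 28 pools and at most 3.03 CPM in any pool. A count of 0 allows up to 3 counts, which averaged 0.639 to 1.09 CPM over the pools of a population. The 3 transcripts were not detectable in most pools at this depth, a limit that covers counting error only.

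**Figure D2:**
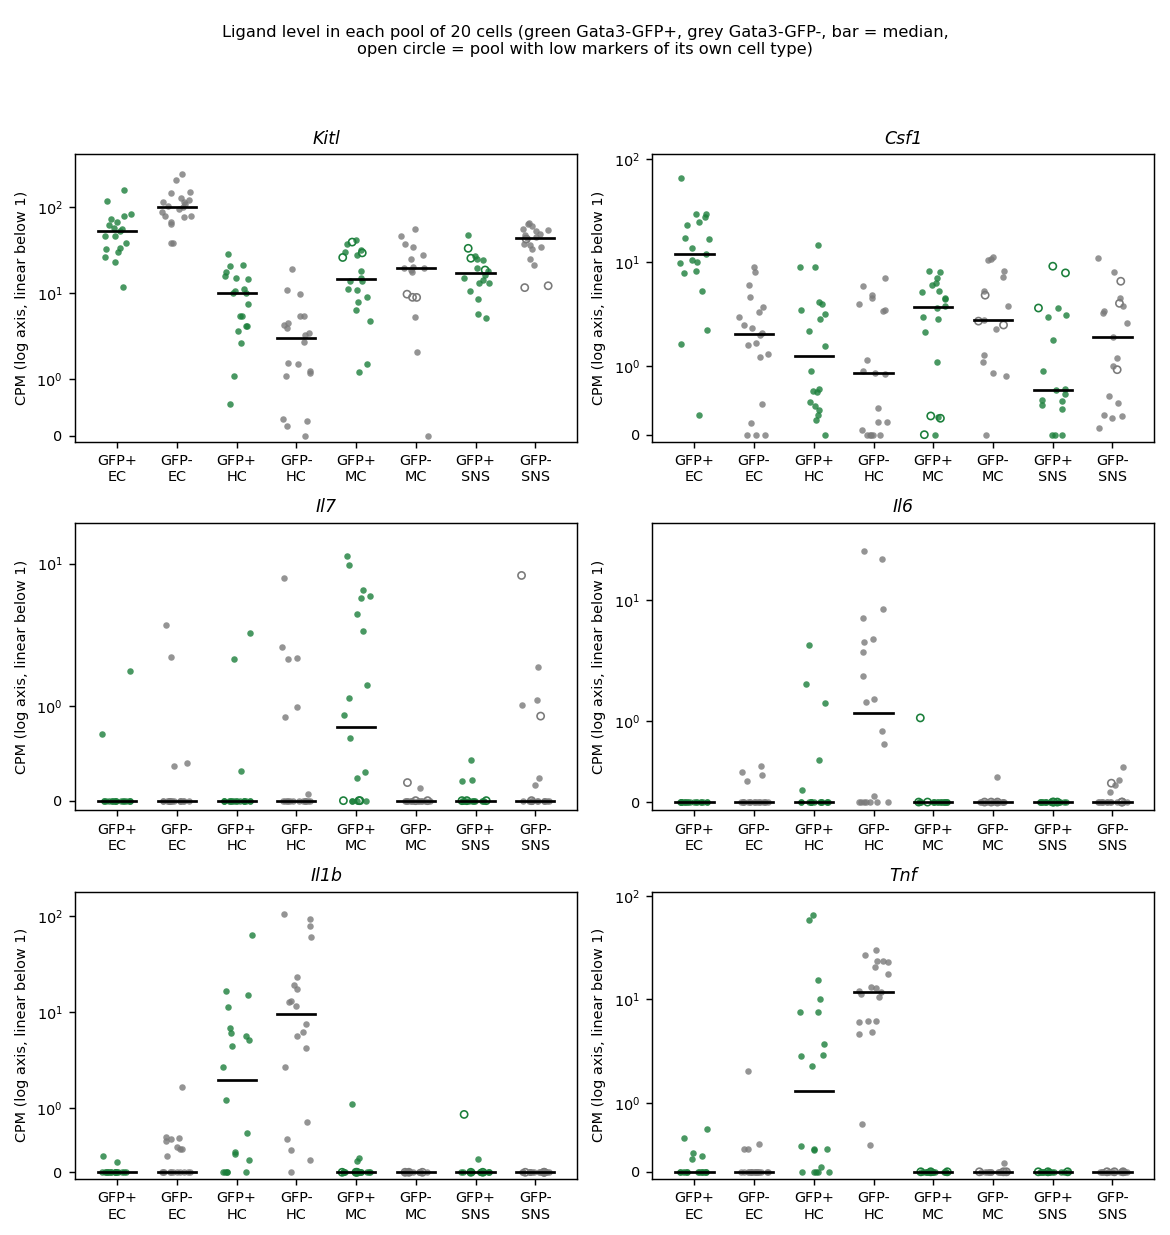
Level of the 6 testable ligands in each of the 153 pools, in CPM on an axis that is logarithmic above 1 and linear below. Green points are GFP+ and grey points GFP- pools, bars are population medians, and open circles are the 12 pools with low markers of their own cell type. *Csf1* is highest in GFP+ ECs (median 12 CPM), *Il7* in GFP+ MCs, and *Il6*, *Il1b* and *Tnf* rise above 10 CPM in HC pools only.

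*Il7* was a transcript of a subset of GFP+ MC pools. It had at least 1 count in 13 of the 20 GFP+ MC pools, 8 of which held 10 or more, and its lowest, median and highest values there were 0, 0.781 and 11.3 CPM (mean 2.59 ± 3.53, n = 20). In GFP- MCs, 2 of 17 pools held a single count each, and all 13 GFP+ pools with a count lay above every GFP- pool. The summed counts were 288 against 2, a ratio of 105 after scaling to depth, with an exact 95% counting interval of 28.9 to 874, which covers counting error only. *Il7* was called in this comparison (adjusted p = 6.58e-05), as it was without the low-marker pools (adjusted p = 8.95e-06). A two-sided permutation test on log2(CPM + 1) gave an unadjusted p = 4.00e-05. *Il7* passed the filter on low counts through the GFP+ pools alone.

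In the other populations *Il7* averaged 0.0469 to 0.839 CPM, with 10 counts in 2 GFP- HC pools and 1 GFP- SNS pool. That SNS pool is a low-marker pool, and without the low-marker pools the GFP- SNS mean fell from 0.712 to 0.274 CPM. The 7 neighbouring pairs in its order of levels did not differ beyond their spread, GFP+ MCs and GFP- HCs at the top included (adjusted p = 0.0654). Of the other ligands tested between GFP+ and GFP- MCs, neither *Kitl* nor *Csf1* was called, and 4.36% of all genes were, or 10.4% without the low-marker pools. The call of *Il7*, which had to differ to pass the filter, is not read against that share. Of the SNS tests, *Kitl* was called and *Csf1* was not, beside 3.87% of all genes, or 10.4% without the low-marker pools. Mural cell markers were also higher in GFP+ MCs, from 121 to 11155 CPM in sum against 69.3 to 4762 CPM, with 2 of 5 called (*Rgs5* and *Myh11*). Of the 9 sympathetic markers, 3 were lower in GFP+ MCs with the low-marker pools included. The part of these markers in the *Il7* values was not tested.

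The inflammatory ligands *Il6*, *Il1b* and *Tnf* were transcripts of the hematopoietic sort. HCs held 95.6% of the summed mean CPM of *Il6*, 98.6% of that of *Il1b* and 98.9% of that of *Tnf*, and outside HCs none of the EC, MC or SNS pools reached 10 counts of any of the 3. The summed, depth-scaled counts of *Il1b* in HCs were 94.8 times those in ECs (exact 95% counting interval 58.2 to 166), and those of *Tnf* 86.6 times (53.1 to 152). For *Il6* the ratio to ECs was 94.7 (36.8 to 349), and 47.2 (18.2 to 175) without 1 GFP- HC pool that held 259 of its 487 HC counts. *Tnf* had 0 counts in all 37 SNS pools, so its level in HCs was at least 658-fold higher, against a floor of 3 counts over the SNS pools.

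Within HCs, *Il6* was the only one of the 3 called between the fractions. It had 10 or more counts in 7 of 20 GFP- and 1 of 20 GFP+ pools, with lowest, median and highest values of 0, 1.16 and 25.6 CPM in GFP- and 0, 0 and 4.31 CPM in GFP+ HCs. The groups overlapped at the low end, and 6 GFP- pools lay above every GFP+ pool. The means were 0.423 ± 1.06 CPM (n = 20) in GFP+ and 4.17 ± 7.20 CPM (n = 20) in GFP- HCs, a log2 fold change of -3.30 (SE 0.89, adjusted p = 0.00278). *Il6* passed the filter on low counts almost entirely through GFP- pools, and it was not called with ERCC size factors (-2.82, adjusted p = 0.0142) or in the study's own test on log values (adjusted p = 0.0131).

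*Il1b* reached 106 CPM in GFP- and 64.1 CPM in GFP+ HCs, with medians of 9.58 and 1.95 CPM and a lowest value of 0 in both. The groups overlapped, with 16 of 20 GFP+ pools below the GFP- median. The means were 7.03 ± 14.4 and 23.3 ± 33.2 CPM (n = 20 each), and the log2 fold change of -1.70 (SE 0.74, adjusted p = 0.0672) was not called.

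*Tnf* reached 10 counts in more pools than *Il6* or *Il1b*. It had 10 or more counts in 18 of 20 GFP- HC pools, whose lowest, median and highest values were 0.393, 11.8 and 29.8 CPM, but in 7 of 20 GFP+ pools, whose values were 0, 1.31 and 64.6 CPM. Of the GFP+ pools, 10 lay below every GFP- pool and 2 above every one. The means of 8.82 ± 18.5 and 13.3 ± 8.80 CPM (n = 20 each) gave a log2 fold change of -0.59 (SE 0.64, adjusted p = 0.505), or -1.17 (adjusted p = 0.145) without the highest GFP+ pool. On a log scale, which gives less weight to the few high pools, the difference was larger. A permutation test on log2(CPM + 1), two-sided, gave a difference of -1.69 and an unadjusted p = 0.00236. The study's own test gave -2.69 (adjusted p = 0.00416), a call.

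The 3 inflammatory transcripts were found together in different numbers of the HC pools. In GFP- HCs, 15 of 20 pools held 10 or more counts of exactly 2 of them, 2 pools of all 3 and 3 pools of 1. In GFP+ HCs, 9 of 20 pools held none of the 3 at that level, 5 held 1 and 6 held 2. Of the 5 ligands tested between GFP+ and GFP- HCs, *Il6* was called, and of all genes tested 26.6% were. The call of *Il6*, which passed the filter almost entirely through GFP- pools, is not read against that share.

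Blood cell marker transcripts differed between the HC fractions. Summed macrophage markers ran from 1460 to 15823 CPM (median 7370) in GFP+ and from 7837 to 15864 CPM (median 10346) in GFP- HCs, with 5 of 12 lower in GFP+ and none of the 12 at a median of 0 in either. Summed granulocyte markers ran from 2.95 to 292 CPM in GFP+ and from 28.3 to 29170 CPM in GFP- HCs, with 6 of the 6 tested lower in GFP+. All 4 megakaryocyte markers were higher in GFP+ HCs (1632 to 57066 against 128 to 3695 CPM). Their part in the values of *Il6*, *Il1b* and *Tnf* was not tested.

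**Figure D3:**
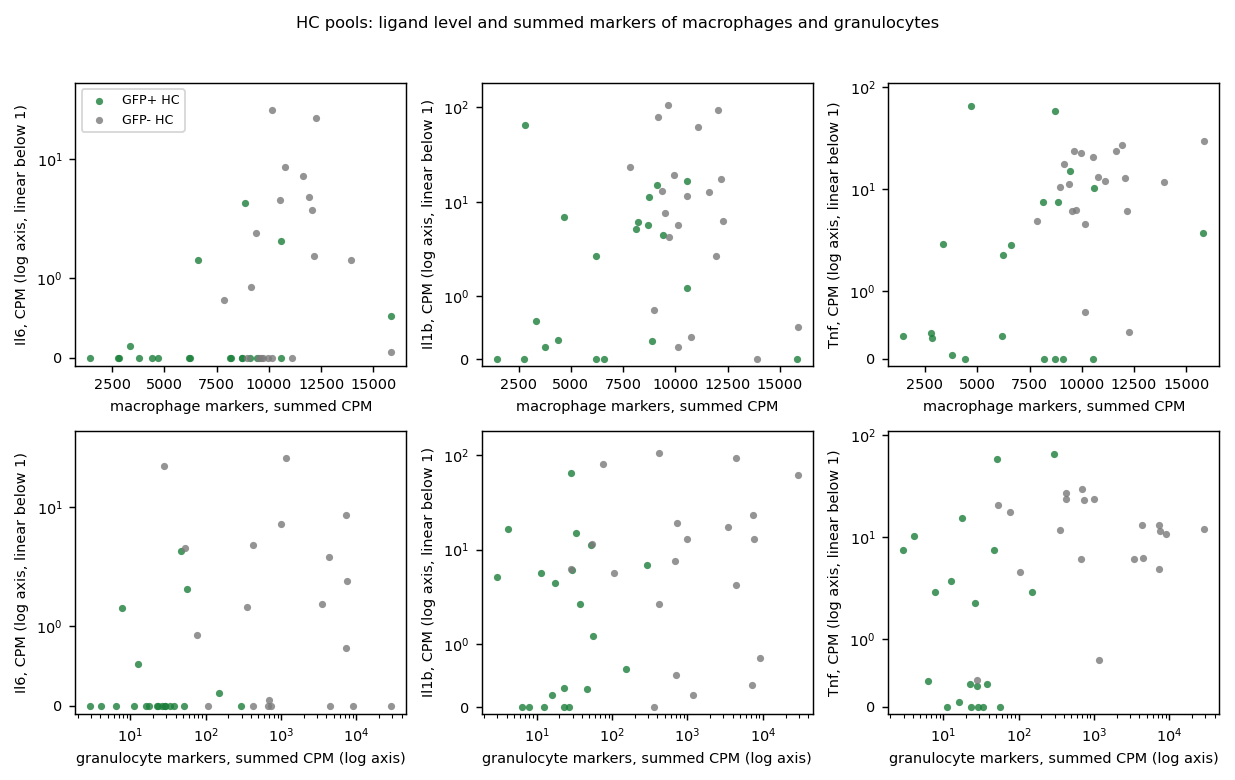
*Il6*, *Il1b* and *Tnf* (y axes, CPM, logarithmic above 1 and linear below) against the summed CPM of macrophage markers (upper row, linear x axis) and granulocyte markers (lower row, log x axis) in the 40 HC pools, green for GFP+ and grey for GFP-. GFP+ pools reach down to 1460 CPM of macrophage markers, where GFP- pools start at 7837 CPM, and no GFP+ pool exceeds 292 CPM of granulocyte markers.

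Across cell types, with the 2 fractions of each averaged, *Kitl* was higher in ECs than in HCs, MCs and SNS and higher in MCs and SNS than in HCs. *Kitl* in HCs was lower than in ECs by a log2 fold change of -3.64 (SE 0.26, adjusted p = 5.64e-27), in MCs by -1.99 (SE 0.25, adjusted p = 3.54e-12) and in SNS by -1.50 (SE 0.24, adjusted p = 3.98e-08). Against HCs it was higher by 1.65 in MCs (adjusted p = 3.85e-09) and by 2.15 in SNS (adjusted p = 1.72e-13). *Csf1* was lower in HCs (-1.51, adjusted p = 0.000648) and SNS (-1.46, adjusted p = 0.00111) than in ECs, but not in MCs (-0.72, adjusted p = 0.113). With ERCC size factors neither the *Kitl* nor the *Csf1* difference between SNS and ECs was called. EC and HC pools were of E10.5 and MC and SNS pools of E11.5, so that stage and cell type cannot be told apart between these pairs.

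Of the 6 ligands tested, 5 were called between HCs and ECs, beside 49.6% of all genes tested. *Kitl* and *Tnf* were called between MCs and ECs, beside 48.9%, and *Kitl*, *Csf1* and *Tnf* between SNS and ECs, beside 51.2%. Outside HCs *Tnf* was at the detection limit, so no fold is given for it there, and with DESeq2's Wald test it was called neither in MCs (adjusted p = 0.0870) nor in SNS (adjusted p = 0.0310) against ECs. *Kitl*, *Il6*, *Il1b* and *Tnf* were called between MCs and HCs, beside 60%, and the same 4 between SNS and HCs, beside 57.2%. None of the 6 was called between SNS and MCs, beside 20.3%, with edgeR or with DESeq2's Wald test, and 1, *Kitl*, had an unadjusted p under 0.05. Without the low-marker pools *Csf1* was lower in SNS than in MCs (-1.38, SE 0.43, adjusted p = 0.00568), beside 33.2% of all genes. Of the neighbouring pairs in the orders of the inflammatory ligands, GFP- above GFP+ HCs was called for *Il6*, and GFP+ HCs above GFP- ECs for *Il1b* and *Tnf*, a pair for which 34.7% of genes were called. Over all 28 pairs of populations together 34.8% of gene tests were called. *Il6*, *Il1b* and *Tnf* passed the filter on low counts through HC pools alone. Their calls between HCs and another cell type are therefore not read against these shares.

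The difference between GFP effects was tested directly as well. For *Kitl* the effect in HCs exceeded that in ECs by 2.36 (SE 0.50, adjusted p = 5.17e-05), a contrast in which 22.1% of genes were called, and the effect in SNS was below that in HCs by a value of -2.58 (SE 0.50, adjusted p = 1.93e-05), beside 17% of genes. The *Kitl* effects in ECs and SNS, both towards GFP-, differed by -0.22 (SE 0.48, adjusted p = 0.773). The *Kitl* effect in MCs minus that in HCs was -1.59 (adjusted p = 0.0104) and not called, but it was called without the low-marker pools (-1.95, adjusted p = 0.00223) and with DESeq2 size factors (adjusted p = 0.00954). For *Csf1* the effect in ECs exceeded those in MCs (difference -2.92, SE 0.80, adjusted p = 0.00333, beside 14.6% of genes, but -2.48 and not called with ERCC size factors, adjusted p = 0.0131) and SNS (-3.12, SE 0.81, adjusted p = 0.00128, beside 22.1%), and its difference between HCs and ECs was -1.95 (SE 0.80, adjusted p = 0.0503), not called. *Il7* was called in all 3 contrasts of MCs with another cell type, those with ECs, with SNS (beside 8.88% of genes) and with HCs (beside 17.3%). In these *Il7* contrasts, and for *Il6* between MCs and HCs, one side was near 0 counts, where the fitted size depends on the prior count, and the *Il6* difference was not called without the low-marker pools (adjusted p = 0.821). *Il7* passed the filter on low counts mainly through GFP+ MC pools and *Il6* mainly through GFP- HC pools. Their calls are therefore not read against those shares.

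**Figure D4:**
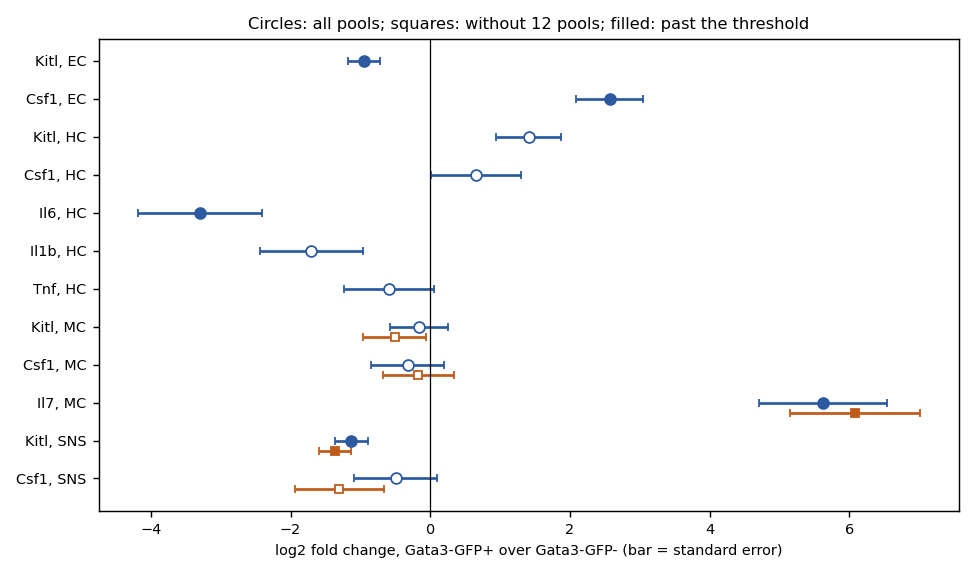
Log2 fold change of each testable ligand between GFP+ and GFP- pools of a cell type (x axis), with the standard error as bars. Circles use all passing pools, squares leave out the 12 low-marker pools, and filled symbols are called: *Kitl* is lower in GFP+ ECs (-0.95) and SNS (-1.13), *Csf1* higher in GFP+ ECs (2.57), *Il7* higher in GFP+ MCs and *Il6* lower in GFP+ HCs (-3.30).

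The receptors of these ligands had their own distribution. *Kit*, the receptor of stem cell factor, was detected in all 8 populations, with means from 17.9 CPM in GFP- HCs to 91.6 CPM in GFP+ MCs. *Csf1r* was an HC transcript, at 452 ± 251 CPM (n = 20) in GFP+ and 763 ± 170 CPM (n = 20) in GFP- HCs against at most 5.97 CPM on average elsewhere, while its ligand *Csf1* was highest in GFP+ ECs. *Il7r* averaged 13.9 and 8.0 CPM in GFP+ and GFP- HCs and at most 0.124 CPM in the other populations, while its ligand *Il7* had its highest mean in GFP+ MCs and its next highest in GFP- HCs. *Il6ra* was likewise an HC transcript (38.3 and 85.7 CPM), whereas the TNF receptor *Tnfrsf1a* was found at 26.9 to 99.1 CPM in all populations.

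Of the 13 receptor genes, 10 were tested in ECs and 4 were higher in GFP+ ECs: *Tnfrsf1b* (1.95), *Il2rg* (1.40), *Lifr* (1.12) and *Il6st* (0.72, all log2 fold changes). Their median was 0.95, beside 0.10 over all genes tested. Among all genes 19.5% were higher and 16.5% lower. In HCs, *Il6ra* (-1.17), *Tnfrsf1a* (-0.72) and *Csf1r* (-0.76) were lower in GFP+ pools, with a median of -0.23 over the 13 receptors beside 0.05 over all genes. Among all genes tested in HCs, 26.6% were called in either direction. *Csf1r* is itself one of the 12 macrophage markers. Of the 7 receptors tested in MCs and the 7 in SNS, edgeR called none, while 4 and 3 had an unadjusted p under 0.05 and DESeq2's Wald test called 2 and 0. Without the low-marker pools, 3 of the 7 tested (*Kit*, *Il2rg* and *Il1rap*) were higher in GFP+ MCs and 1 of 6 (*Kit*) in GFP+ SNS. Of all genes, 10.4% were then called in each of these cell types.

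**Figure D5:**
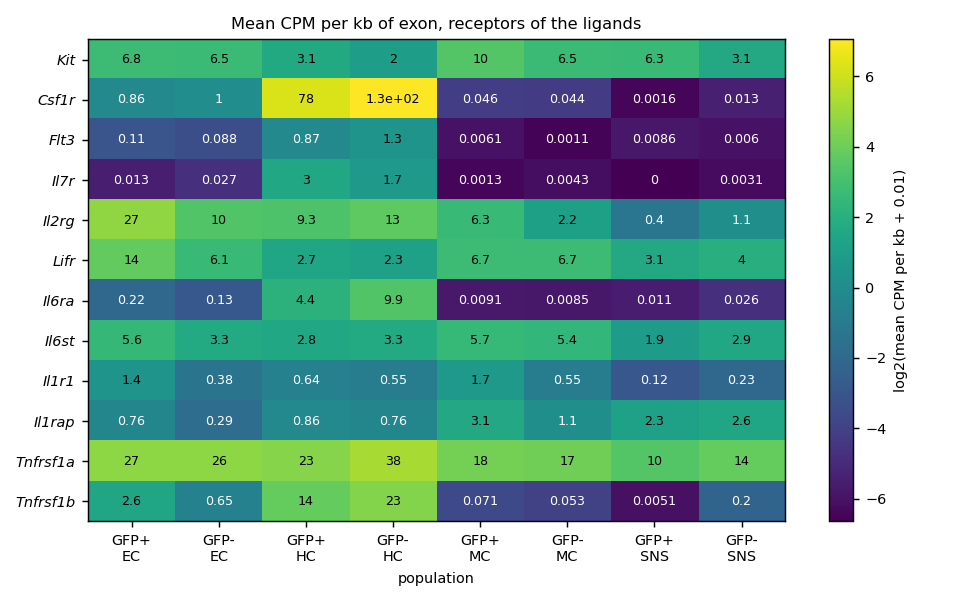
Mean level of 12 of the receptor genes (rows) in the 8 populations (columns), in CPM per kb of exon, with each mean printed in its cell and the colour on a log2 scale. *Csf1r*, *Il6ra* and *Il7r* are high in the HC columns, while *Kit*, *Lifr* and *Tnfrsf1a* are found in all columns.

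Related cytokines and other niche factors were counted from fixed lists. Of 6 related cytokines tested in ECs, 5 were higher in GFP+ ECs, beside 19.5% of all genes, and the largest rise was that of *Clcf1*, an IL-6 family ligand, at 26.8 ± 14.6 CPM (n = 19) in GFP+ against 0.722 ± 1.32 CPM (n = 20) in GFP- ECs (log2 fold change 5.14, adjusted p = 1.22e-11). Among those tested in HCs, *Clcf1* was higher in GFP+ pools and *Il15* was lower (-1.01). Of all genes tested in HCs, 26.6% were called in either direction. None of the 8 related cytokines tested in MCs or the 7 in SNS was called by edgeR, with 1 and 2 at an unadjusted p under 0.05 and 1 and 0 called by DESeq2's Wald test. Without the low-marker pools, 1 of 6 tested, *Il15*, was higher in GFP+ MCs. In SNS 1 of 5 was then higher and 1 lower in GFP+ pools, and 10.4% of all genes were called in each cell type.

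Among the other niche factors, 11 of the 20 tested were higher and 2 lower in GFP+ ECs, beside 19.5% and 16.5% of all genes, and their median change was 2.09 on the log2 scale, beside 0.10 over all genes. The largest rise was that of *Cxcl12* (5.30, adjusted p = 8.37e-12), the chemokine that retains stem cells in the marrow, and the largest fall that of *Bmp4* (-2.09, adjusted p = 2.31e-05). In HCs 12 of 19 were higher in GFP+ pools and none lower, beside 17.1% and 9.53% of all genes, with *Bmp4* the largest rise (6.21, adjusted p = 1.93e-11). These are the populations in which markers of the other sorted cell types were also higher in GFP+ pools (mesenchymal markers in 7 of the 7 tested in ECs and 8 of 9 in HCs), and their part in the niche factor values was not tested. In MCs *Jag1*, a Notch ligand, was higher (1.61) and *Wnt5a* lower (-2.03) in GFP+ pools, and in SNS 2 were lower, *Jag1* the more so (-1.48). Without the low-marker pools, 6 factors of 20 were called in MCs and 10 of 20 in SNS, beside 10.4% of all genes in each.

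Genes that process or oppose the ligands were counted in the same way. In ECs 5 of the 6 tested were higher in GFP+ pools, beside 19.5% of all genes, the most *Rhbdf2* (1.62, adjusted p = 0.000826), a cofactor of TNF shedding. In HCs 2 of 11 were lower, beside 9.53% of all genes, *Casp1* (-1.12), the protease that matures IL-1β, and *Pycard* (-0.96), its inflammasome adaptor. In MCs 1 of the 6 tested, the sheddase *Adam10*, was higher by 0.36, and 4.36% of all genes were called in either direction. Of the 7 tested in SNS none was called by edgeR or DESeq2's Wald test, and 0 had an unadjusted p under 0.05. Among 16 response genes of the JAK-STAT and NF-κB pathways, 2 were higher and 1 lower in GFP+ ECs, *Bcl3* rising most (2.23) and *Cebpd* falling (-1.46), beside 19.5% and 16.5% of all genes. In HCs 2 were higher, *Cish* most (3.16), and 7 lower, *Cebpd* most (-1.76), beside 17.1% and 9.53% of all genes, with a median of -0.47 beside 0.05 over all genes. In MCs and SNS edgeR called none of 14 and 15, of which 1 and 2 had an unadjusted p under 0.05, and DESeq2's Wald test called none. Without the low-marker pools, 1 of the 14 tested in MCs, *Socs2*, was lower in GFP+ pools, beside 10.4% of all genes called in either direction.

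The genes whose level over the 153 pools was most like that of each ligand were found among 16435 genes by Pearson's r of log2(CPM + 1). The points share the sort and the depth of each pool, and the values are a description. For *Kitl* they were *Ktn1*, *Lama4* and *Srgap1*, all at r = 0.74, with the highest medians in ECs. For *Csf1* they were *Nfat5* (0.56), *Gm38197* (0.56) and *Gm13111* (0.55), and for *Il7* *AI838599* (0.48), *2610528A11Rik* (0.46) and *Pi15* (0.45). *Il6* was most like *Ddx60* (0.65), *Cyp4f18* (0.60) and *Tlr8* (0.59). *Il1b* followed *Rgs1*, *Clec5a* and *Ccl4*, all at 0.76, and *Tnf* followed *Clec5a* (0.85), *Clec12a* (0.84) and *Gm26740* (0.84).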

How the data were processed

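The authors deposited unnormalized read counts per gene from Smart-seq2 libraries of 20-cell pools, 1 column a pool. Per the submitters' processing notes, reads were aligned with GSNAP 2015-09-29 to mm10 and counted with HTSeq 0.5.3p3, whereas the study's methods name another aligner. Reads that HTSeq found ambiguous (median 34.2 per 100 gene counts) stayed out, which lowers overlapping genes. Pools with under 500000 reads, under 20% of reads on genes, or over 20% mitochondrial or ERCC spike-in reads, the study's limits, were left out (7 of 160). Counts per pool set the precision, and intervals cover counting error only.

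Groups were taken from the labels. CPM used TMM library sizes. GFP+ and GFP- pools of 1 cell type were compared with edgeR 4.0.16 (quasi-likelihood, robust) in R 4.3.3, and cell types, interactions and pairs of populations in 1 fit of 8 populations. Genes needed 10 counts in 5 pools. The script was tested on simulated counts. Alternatives were other size factors (DESeq2 1.42.0, scran 1.30.0, ERCC), other filters and thresholds, DESeq2's Wald test, scanpy 1.11.5 as the study used it, and 100000-draw permutation tests. Leaving out the 12 pools with low markers of their own cell type, or the pool with the highest value, was chosen after seeing the data.

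The ligands, gene lists and marker lists were chosen with earlier results of these data known. The text names the ligands, their receptors, the largest rise and fall of each other list, the 3 genes most like each ligand and *Gata3*. Marker genes and the members called in counts of 3 or fewer were named after their values were seen. Some members of these lists are included in counts but not reported here by name.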

Additional observations from a re-analysis of the deposited data

Results flagged for a closer look

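The GFP effect, the log2 fold change of GFP+ over GFP- pools, differed between cell types by a direct test for 4 ligands (quasi-likelihood test of edgeR in 1 fit of 8 populations, adjusted over all genes). The *Kitl* effect in HCs exceeded that in ECs by 2.36 (1.44 against -0.92), and the effect in SNS (-1.13) differed from that in HCs by -2.58 (adjusted p = 1.93e-05). The *Csf1* effect in ECs was 2.61, and those in MCs (-0.31) and SNS (-0.50) differed from it by -2.92 and -3.12, with adjusted p-values of 0.00333 and 0.00128, the first not called with ERCC size factors (-2.48, adjusted p = 0.0131).

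The *Il7* effect in MCs differed from that in ECs by 7.02 and from that in HCs by 7.26, and the effect in SNS differed from that in MCs by -8.87. All 3 were also called without the 12 low-marker pools (7.53, 7.77 and -7.97), and in all of them one side was near 0 counts, so that the fitted sizes depend on the prior count. *Il7* passed the filter on low counts mainly through GFP+ MC pools, and the 8 of these with 10 counts are all kept without the low-marker pools. The repeated calls are therefore no independent support. The *Il6* effect in MCs differed from that in HCs by 4.13 (adjusted p = 0.00842), and without those 12 pools the difference was 2.50 (adjusted p = 0.821). No MC pool held 10 counts of *Il6*. Contrasts of MCs or SNS with ECs or HCs are also contrasts of E11.5 with E10.5, which cannot be told apart.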

How the results depend on the processing

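No paired analysis was possible because the pools carry no replicate number that ties a GFP+ to a GFP- pool. Leaving out the pool with the highest value changed no ligand's call between GFP+ and GFP-, but moved *Tnf* in HCs from -0.59 to -1.17 and turned the sign of *Kitl* in MCs, never called, from -0.17 to 0.0059. That *Kitl* value was also 0.098 in the study's own test and 0.088 in the permutation test with a pseudocount of 0.1. Depth limits *Thpo*, *Il34*, *Lif* and, outside HCs, *Il6*, *Il1b* and *Tnf*.

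Of the ligands between EC fractions, 2 were called, against 1 in the fit of 8 populations and 4 with no filter on genes. Between HC fractions 1 was called, against 0 with ERCC size factors or with 10 counts required in 20 pools, and 2 at an adjusted p under 0.05, in the fit of 8 populations, with no filter, with DESeq2's Wald test and in the study's own test. Between MC fractions 1 was called, against 0 with 10 counts in 20 pools, and between SNS fractions 1, against 0 with ERCC size factors or in the fit of 8 populations. *Il6* and *Il7* reached 10 counts in only 8 and 11 of the 153 pools. Where 20 such pools were required they were not tested, so the 0 in HCs and MCs is no retest. Between MCs and ECs it was 2, against 1 with DESeq2's Wald test, between SNS and ECs 3, against 1 with ERCC size factors and 2 with DESeq2's Wald test, and between SNS and MCs 0, against 1 with ERCC size factors, 1 without the 12 low-marker pools and 2 with no filter.

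Of the differences between GFP effects, 1 ligand was called for SNS against MCs, with 2 at an adjusted p under 0.05, 2 with no filter and 0 with 10 counts in 20 pools. For MCs against ECs 2 were called, with 4 at an adjusted p under 0.05 and 1 with 10 counts in 20 pools, and for MCs against HCs 2, with 4, 0 and, with ERCC size factors, 1. *Il7* and *Il6* were not tested where 10 counts in 20 pools were required, so the lower numbers there are no retest of them. For SNS 1 was called against ECs and 1 against HCs, with 2 each at an adjusted p under 0.05 and 2 against ECs with ERCC size factors. The *Kitl* effect in SNS minus that in ECs turned to 0.56 with ERCC size factors, and *Csf1* in SNS against HCs to -0.44 without the 12 pools. Neighbouring populations of *Kitl* differed in 1 pair, but in 3 at an adjusted p under 0.05 and 4 with ERCC size factors. For *Csf1* it was 1, but 0 with ERCC size factors or without the 12 pools, and for *Il6* and *Il1b* 1 each, but 2 each at an adjusted p under 0.05 or with ERCC size factors.

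Over all genes, 698 were called between MC fractions, against 1514 at an adjusted p under 0.05, 1130 in the fit of 8 populations, 381 with ERCC size factors and 1586 without the 12 pools. Between SNS fractions 624 were called, against 1331, 1013 with ERCC size factors and 1631 without the 12 pools, and between SNS and MCs 4083, against 8337 with ERCC size factors and 6591 without the 12 pools. ERCC size factors moved the median log2 fold change of all genes from 0.10 to -0.60 between EC fractions, where 951 were then higher and 5685 lower (2932 and 2492 in the main test), from 0.00 to 0.35 between SNS fractions (844 and 169, against 325 and 299) and from 0 to 0.47 between SNS and MCs (7356 and 981, against 2023 and 2060). Between MC fractions the split was 276 and 105 (354 and 344). Against ECs the medians moved to 0.46 in HCs (8145 and 2748, against 5549 and 4415), 0.55 in MCs (9418 and 1961, against 5364 and 4454) and 1.02 in SNS (13111 and 1564, against 5581 and 4691), and against HCs to 0.20 in MCs and 0.69 in SNS (10303 and 2526, against 6024 and 5471). With scran size factors the split was 544 and 155 between MC fractions and 2457 and 2087 between HC fractions (2763 and 1544), and in the fit of 8 populations 273 and 405 between SNS fractions. Apart from the construction of the alternatives the cause was not tested.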
